A study of Ictidomys tridecemlineatus with 15 samples.

Results

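Membrane trafficking genes encode the small GTPases, coats, tethers, membrane fusion proteins and sorting complexes that carry cargo between the compartments of a cell. They were chosen here by name, from transcription units that carry 1 gene name, as units whose name starts with Rab, Vps, Snx, Stx, Trappc, Sec or Arf and a digit, or with the letters of a COPI coat gene. The rule found 80 of the 4705 single-gene units, in a table of 6324 units in all. Transcription was measured in liver of female 13-lined ground squirrels, housed in a laboratory and bought from the breeding colony at the University of Wisconsin Oshkosh. The method was GRO-seq, in which RNA polymerases already engaged in isolated nuclei are allowed to run on with BrdU, here for 7 min at 30 °C, so that the reads count engaged transcription and not the amount of RNA. Telemetered body temperature and time placed each animal in 1 of 5 states, and age was not given. SA (summer active) animals were homeothermic, before hibernation began. IBA (interbout aroused) animals were between bouts of torpor, Ent animals were entering torpor, ET animals were early in a torpor bout and LT animals late in one. SA, IBA, Ent and ET each had 3 libraries, each from 1 animal. LT had 2 libraries, replicates 1 and 3, and LT replicate 2, which has no column among the counts, was not used here. SA and IBA are called warm, and ET and LT cold.

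Proteins made for export enter the endoplasmic reticulum (ER) through the Sec61 channel, leave it in vesicles coated by COPII, and pass the Golgi before secretion, while COPI vesicles bring material back. Rab and Arf GTPases mark compartments and recruit coats and tethers, SNARE proteins such as the syntaxins fuse membranes, and sorting nexins and Vps complexes sort cargo in endosomes and lysosomes. Hepatocytes depend on these routes to secrete plasma proteins and lipoproteins, to take up ligands from blood and to keep a blood-facing and a bile-facing membrane.

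Total counts per library ran from 3713883 to 8884763, over all units of the table. Levels are given as counts per 1000000 (CPM) with library sizes scaled by TMM, so that each value is relative to the other counts of its library. All 80 members had at least 10 counts in every library, and the lowest count was 34, for Vps29. Together they took 9300.7, 9546 and 9297 CPM in the SA libraries, 10562, 9580 and 9975 in IBA, 9716, 9351 and 9607 in Ent, 10071, 10834 and 9758 in ET, and 10054 and 9910 in LT. Those sums overlap between the warm and the cold states. Per kb of unit, the mean level over the 14 libraries had a median of 2.21 CPM per kb, against 2.16 over all single-gene units, and ran from 0.586 for Trappc9 to 11.1 for Arf1. Rab1a was next to Arf1 at 10.2 CPM per kb and Sec16b at 9.94 CPM per kb. The members' units had a median length of 38.1 kb, against 36.2 kb over all single-gene units. A further 42 units carry a gene of the rule together with another name (Rab7a, Copa, Copb2, Sec13, Sec31a and Stx5 among them). They were not counted as members, since the rule takes only units with 1 name. Where the names are of different genes, the reads cannot be assigned to 1 gene.

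The comparison of the cold with the warm states used 5 cold and 6 warm libraries and asked which members differed between torpid and warm liver. In the edgeR quasi-likelihood test with Benjamini-Hochberg adjustment over all units, at an adjusted p of 0.001, 11 members were higher in the cold, beside 18.3% of all single-gene units, and 7 were lower, beside 18.7%. At an adjusted p of 0.05, 29 were higher (30.1% of single-gene units) and 22 lower (35%). At 0.001 both counts are smaller shares of the 80 members than of all single-gene units, and at 0.05 the higher count is a larger share and the lower count a smaller one, which was not tested. In 14 members (20.3% of single-gene units) every cold library was above every warm one, and in 9 (20.2%) every cold library was below, and all 18 called members were among them. Over the 80 members the log2 fold changes had a median of 0.06, and over the single-gene units of -0.07. Single libraries weighed on the counts. Without LT replicate 1 the higher members were 7 and the lower 4, and without LT replicate 3 the lower were 4. Scaling moved the split as well: with total counts as library sizes the calls were 15 higher and 4 lower, and with mapped reads as library sizes 22 higher and 4 lower. The all-gene median moved by 0.118 and 0.229 on the log2 scale with those scalings, so that a change is relative to it. None of the 18 called members changed sign under any of these tools and scalings.

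Over the 5 states together, 11 members passed an adjusted p of 0.001 in the edgeR quasi-likelihood F test with Benjamini-Hochberg adjustment, beside 26.4% of single-gene units. At 0.05 the number was 44, beside 63.3%. The count was 5 without LT replicate 1, 6 without IBA replicate 1, 2 or 3, 7 without ET replicate 1 or 3, and 2 with season in the model. DESeq2 called more members, including all 11, and its count is given with the other alternatives at the end. Among the 11 were Snx11, Rab5a, Snx17, Rab17, Rab11a, Vps29, STX18_containing, Rab1a, Arf1 and Snx2, and 10 of the 11 were also called in the cold against the warm states, Vps29 being the exception.

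The season in which an animal was collected moved with the state. The 3 ET animals were alone in the second collection season, the LT animals were all from the first and the IBA animals all from the third, while SA and Ent were split between the first and the third. ET and its season cannot be told apart. A season term added to the model told the third season from the other 2, so that the part of ET in the comparison of cold with warm, 3 of the 5 cold libraries, was not adjusted for its own season. In that fit 3 members were called higher and 2 lower at 0.001, Snx11, Rab11a, STX18_containing and Snx17 among them. The other 13 of the 18 called members missed 0.001, at adjusted p values from 0.00108 (Rab22a) to 0.0546 (Vps18) in edgeR, and 17 of the 18 passed 0.05. All 18 kept their sign, and the part of season in the differences that involve ET was not tested.

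Markers of the cell types of liver were looked at beside these results. Of 13 hepatocyte markers, 8 had a unit of their own, and Alb, Apoa1 and Fga were in units shared with other genes. Apob, at a mean of 65.1 CPM per kb, had the most counts of them. The summed hepatocyte markers were 15509, 22775 and 11927 CPM in SA, 14540.4, 11011.5 and 12009 in IBA, 10459, 9313 and 9889 in Ent, 8614, 4070.3 and 5891 in ET, and 7681 and 5228 in LT. Every cold library was below every warm one. Ttr, Tf, Hnf4a, Fgb and Pck1 were each lower in the cold at an adjusted p of 0.001 in edgeR. Cps1 was at -2.12 with an adjusted p of 0.00152, past 0.05, and Apob at -0.23 (0.218) and Ass1 at 0.25 (0.688) did not pass 0.05 in edgeR. In bulk liver, fewer cells of a type and less transcription per cell cannot be told apart, and the part of this shift in the results on trafficking genes was not tested. Of 9 endothelial markers 3 had a unit, with a sum from 186 to 241 CPM in the warm libraries and 124 to 203 in the cold ones, and Kdr, which had the most counts of them, was lower in the cold at 0.001 in edgeR, Pecam1 was at -0.68 (adjusted p 0.00909), and Stab1 was at 0.39 (adjusted p 0.0668) and did not pass 0.05. Of 7 cholangiocyte markers the 1 with a unit, Sox9, ran from 16.5 to 41 CPM in the warm libraries and from 7.07 to 18.1 in the cold, and was lower at 0.001 in edgeR. Rgs5 was the 1 of 11 stellate cell and fibroblast markers with a unit, at 42.4 to 73 CPM in the warm libraries and 32.9 to 56.1 in the cold, at an adjusted p of 0.0526 in edgeR. None of the 11 Kupffer cell and macrophage, 7 lymphocyte, 5 neutrophil and 6 erythroid markers had a unit of its own.

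**Figure D1:**
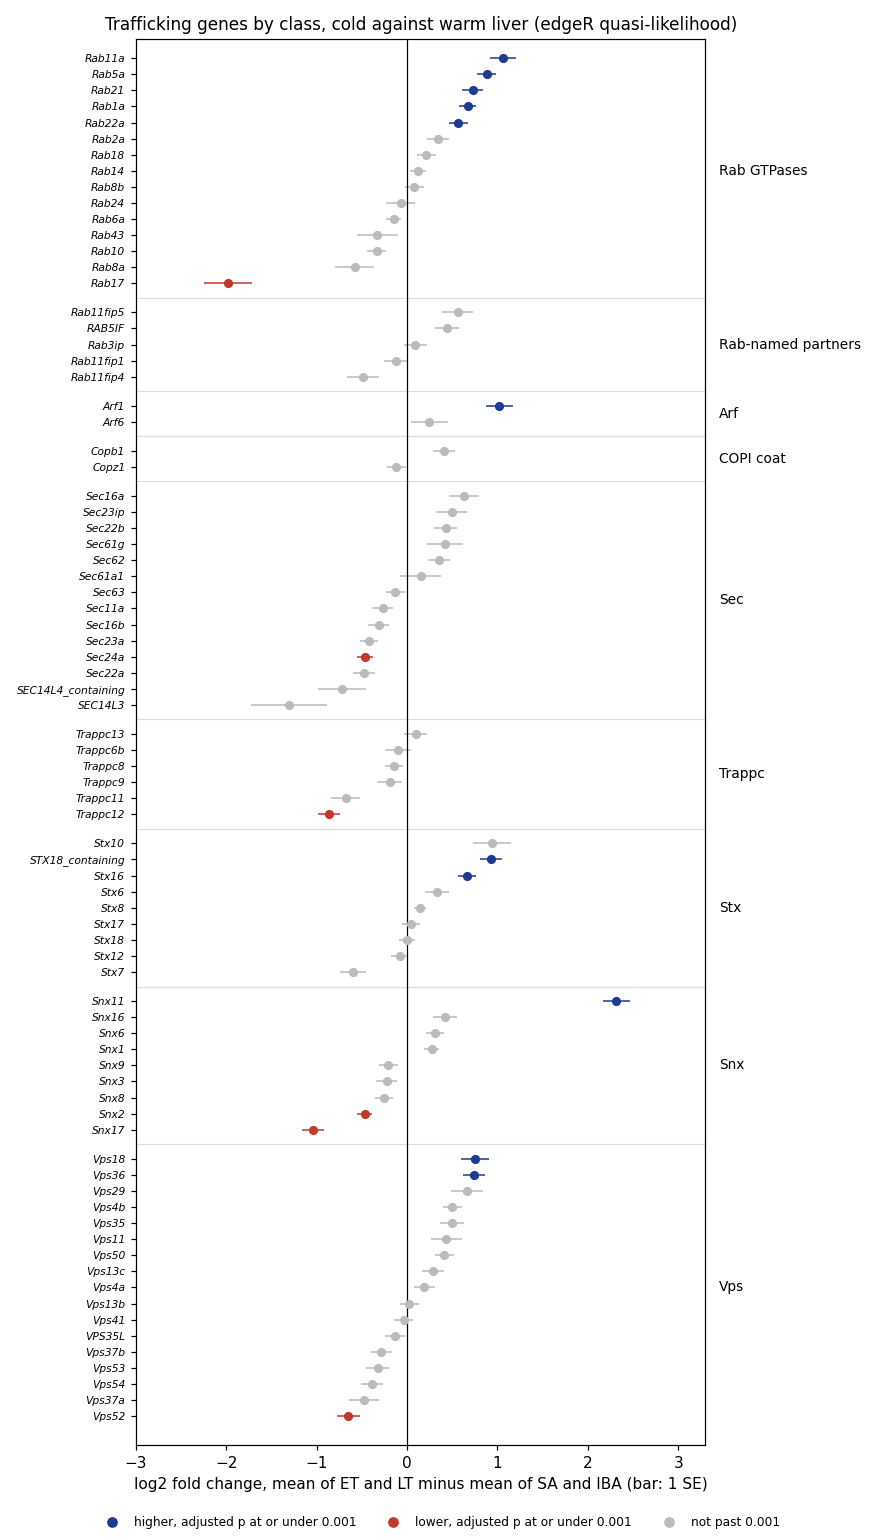
Log2 fold change of 79 members, the mean of ET and LT minus the mean of SA and IBA, with 1 SE as the bar, by class, from edgeR. Blue points mark 11 members higher in the cold and red points 6 lower at an adjusted p of 0.001, from -1.98 for Rab17 to 2.32 for Snx11.

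Rab GTPases label the surface of each compartment and recruit the proteins that move, tether and fuse it. Of 15 members, 5 were higher in the cold and 1 lower at 0.001, beside 18.3% and 18.7% of all single-gene units, which are the shares to set beside the count of each class that follows. No share of a class was tested against them. The same numbers were found with total counts and with mapped reads as library sizes, and 3 to 5 were higher with 1 library left out. With season in the model 1 was called higher and 0 lower. Rab5a, the GTPase of early endosomes, lies on chromosome Itri2, 179100294 to 179128908 (genome build HiC_Itri_2). Its levels were 105, 95.7 and 92.9 CPM in SA, 108, 80.7 and 96 in IBA, 86.1, 91.8 and 104 in Ent, 190.4, 161 and 175 in ET, and 203 and 156 in LT. The 5 cold libraries were all above the 9 others, and SA, IBA and Ent overlapped. The log2 fold change of cold over warm was 0.88 ± 0.11 (SE), with an adjusted p of 1.56e-05 in edgeR with Benjamini-Hochberg adjustment, and the call held without any 1 of the 14 libraries. With season in the model the log2 fold change was 0.91 ± 0.17 (SE), at an adjusted p of 0.00116 in edgeR, which missed 0.001.

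Rab11a, which serves recycling endosomes, lies on chromosome Itri5, 108241778 to 108263308. It had 38.6, 31.4 and 40.5 CPM in SA, 26.7, 30.1 and 35.3 in IBA, 38.3, 39.9 and 56.2 in Ent, 98.1, 82.7 and 68.1 in ET, and 54.1 and 65.5 in LT. Cold libraries were above warm ones without overlap, Ent replicate 3 lay above LT replicate 1, and every ET library was above both LT libraries. The difference of cold from warm was 1.06 ± 0.15 (SE) on the log2 scale, with an adjusted p of 4.24e-05 in edgeR (Benjamini-Hochberg), and it was called without any 1 library. Its call over the 5 states (adjusted p 0.000311 in edgeR) was lost without IBA replicate 1, IBA replicate 2, ET replicate 1 or ET replicate 2, at adjusted p values from 0.00113 to 0.00148. The step from ET to LT, at -0.47 ± 0.22 (SE), had an adjusted p of 0.576 in edgeR and was not called. With season in the model cold over warm was 1.25 ± 0.22 (SE), at an adjusted p of 0.000847 in edgeR, and the call over the 5 states was lost.

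Rab1a acts between the ER and the Golgi and lies on chromosome Itri12, 18680117 to 18729676. Its libraries read 416, 436 and 337 CPM in SA, 408, 413 and 391 in IBA, 462, 471 and 446 in Ent, 612, 671 and 576 in ET, and 692 and 616 in LT. All cold libraries stood above all warm and all Ent libraries, and the 3 Ent libraries stood above the 6 warm ones. Cold over warm was 0.67 ± 0.09 (SE) on the log2 scale, with an adjusted p of 4.11e-05 in edgeR after Benjamini-Hochberg adjustment, and was called without any 1 library. The call over the 5 states (adjusted p 0.000673) was kept without SA replicate 2, SA replicate 3 or Ent replicate 2 and lost without any of the other 11 libraries, with an adjusted p of at most 0.00302 in edgeR. With season in the model the call of cold over warm was lost, at 0.60 ± 0.15 (SE) and an adjusted p of 0.00576 in edgeR.

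Rab17, found mainly in polarised epithelial cells, lies on chromosome Itri6, 190166165 to 190190454. It read 50.6, 95.7 and 49.8 CPM in SA, 78.4, 69.4 and 42.3 in IBA, 22.3, 20.3 and 16.3 in Ent, 26.7, 12 and 14.7 in ET, and 13.3 and 16.2 in LT. The lowest of the 6 warm libraries was above the highest of the 8 Ent, ET and LT libraries, and the ET range overlapped those of Ent and LT. Cold against warm came to -1.98 ± 0.27 (SE), with an adjusted p of 3.75e-05 in edgeR (Benjamini-Hochberg), called without any 1 library. Its call over the 5 states (adjusted p 0.000278) was lost without LT replicate 1, at 0.00119 in edgeR. From IBA to Ent the log2 fold change was -1.69 ± 0.34 (SE) at an adjusted p of 0.00842 in edgeR, past 0.05 but not 0.001. Both SA replicate 1 and Ent replicates 1 and 2 were from the first season, at 50.6, 22.3 and 20.3 CPM, and IBA and Ent replicate 3 from the third season. The season fit gave -1.91 ± 0.42 (SE) for cold against warm, at an adjusted p of 0.00302 in edgeR, which missed 0.001.

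The other called Rabs were Rab21 and Rab22a, which both work at early endosomes. Rab21 had state means of 197 CPM in SA, 188 in IBA, 209 in Ent, 321 in ET and 318 in LT, and cold over warm was 0.73 ± 0.12 (SE) at an adjusted p of 0.000133 in edgeR (Benjamini-Hochberg). Without LT replicate 1 its adjusted p was 0.0013, which missed the threshold. Rab22a had 91.5 CPM in SA, 88.1 in IBA, 101 in Ent, 138 in ET and 129 in LT, with cold over warm at 0.57 ± 0.10 (SE) and an adjusted p of 0.000298 in edgeR. That call was lost without SA replicate 1, IBA replicate 2, ET replicate 3, LT replicate 1 or LT replicate 3, at adjusted p values of up to 0.00205. In both genes all cold libraries were above all warm ones. At 0.05 the test added Rab2a of the Golgi, which was higher (0.34), and Rab10 and Rab8a of the exocytic route, which were lower (-0.34 and -0.58). Rab8b, the paralogue of Rab8a, was at 0.08 with an adjusted p of 0.533 in edgeR, and the difference between the paralogues was not tested. The remaining members, Rab18 of lipid droplets, Rab14 and Rab6a of the Golgi, Rab43 and Rab24, lay between -0.33 (Rab43) and 0.21 (Rab18) and did not pass 0.05. Rab24 and Rab6a had the opposite sign with mapped reads as library sizes.

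Of 5 units whose names add further letters to Rab, 0 were called in the cold against the warm states or over the 5 states in edgeR at 0.001, 3 had an unadjusted p under 0.05 in each, and DESeq2 and limma-voom also called 0 in the cold against the warm, while 1 was called higher with mapped reads as library sizes. RAB5IF, named for binding to Rab5, lies on chromosome Itri5, 174310461 to 174322830 and had the smallest adjusted p over the states. Its levels were 48.2, 65.7 and 58.9 CPM in SA, 37.2, 52 and 51.4 in IBA, 73.3, 58 and 52 in Ent, 86, 81.7 and 75 in ET, and 59.6 and 64.1 in LT. ET stood above all other libraries, LT overlapped with SA and Ent, and the cold differed from the warm by 0.44 ± 0.13 (SE) with an adjusted p of 0.00973 in edgeR (Benjamini-Hochberg). Rab11fip5 and Rab11fip4, which bind Rab11, were at 0.56 and -0.49, past 0.05 in opposite directions. Rab11fip1 and Rab3ip, an exchange factor for Rab8, were at -0.12 and 0.09 and did not pass 0.05, and the sign was the opposite with mapped reads as library sizes for Rab11fip1 and with season in the model for Rab3ip.

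Arf GTPases recruit coats to Golgi and plasma membranes, and 2 were measured. Arf1, which recruits COPI and clathrin adaptors, lies on chromosome Itri1, 87771846 to 87786090. It read 116, 120.5 and 96.7 CPM in SA, 108, 111 and 105 in IBA, 142, 136 and 110.1 in Ent, 301, 157 and 213 in ET, and 203 and 237 in LT. The cold libraries were above all others, with ET replicate 1 the highest. The difference of cold from warm was 1.02 ± 0.15 (SE) with an adjusted p of 6.64e-05 in edgeR (Benjamini-Hochberg), called without any 1 library. Without ET replicate 1 that adjusted p was 5.47e-05 in edgeR. The call over the 5 states (adjusted p 0.000849) held without ET replicate 1 or ET replicate 2 and was lost without any of the other 12, with an adjusted p of at most 0.00306 in edgeR. In the fit with season it was 0.84 ± 0.24 (SE), at an adjusted p of 0.0123 in edgeR, and not called. A unit on the opposite strand overlaps Arf1. Arf6, which acts at the plasma membrane, had 16.8 CPM in SA, 17.5 in IBA, 20.9 in Ent, 29.6 in ET and 14 in LT, and its difference of cold from warm was 0.24 ± 0.21 (SE) with an adjusted p of 0.314 in edgeR. The 3 ET libraries of Arf6 and the 2 LT libraries did not overlap, and the step from ET to LT, at -1.08 ± 0.31 (SE), had an adjusted p of 0.226 in edgeR.

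The COPI coat returns vesicles from the Golgi to the ER, and 2 of its subunits had a unit of their own. Copb1 (beta subunit) lies on chromosome Itri3, 48178415 to 48215349 and read 105, 127 and 96.1 CPM in SA, 154, 120.2 and 143 in IBA, 145, 119 and 134 in Ent, 149, 198 and 139 in ET, and 166 and 163 in LT. Warm and cold libraries overlapped, with IBA replicate 1 above ET replicates 1 and 3. Cold over warm was 0.41 ± 0.12 (SE) with an adjusted p of 0.00946 in edgeR (Benjamini-Hochberg), past 0.05 but not 0.001. Copz1 (zeta subunit) was at -0.12 ± 0.11 (SE) with an adjusted p of 0.343 in edgeR, and its sign was positive with mapped reads as library sizes. At 0.001 edgeR, DESeq2 and limma-voom called 0 of the 2 in the cold against the warm, 1 had an unadjusted p under 0.05, and 1 was called higher with mapped reads.

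The Sec units fall into the ER exit machinery, the translocon with signal peptidase, and Sec14-like lipid-binding proteins. Of 14 units, 1 was called lower in the cold at 0.001 (18.7% of single-gene units) and 0 higher (18.3%) in edgeR, with 11 at an unadjusted p under 0.05. Without SA replicate 2 the lower count was 4, without ET replicate 2 or Ent replicate 1 it was 1, and without any of the other 11 libraries it was 0. DESeq2 called 1 higher and 3 lower, limma-voom 0 and 1, and mapped reads as library sizes gave 2 higher and 0 lower. Sec23a, a subunit of the inner shell of the COPII coat, lies on chromosome Itri5, 49125256 to 49196084 and had the smallest adjusted p over the 5 states, 0.00178. It read 161, 129.8 and 166 CPM in SA, 209.7, 193 and 213 in IBA, 118, 123 and 122 in Ent, 127, 154 and 116 in ET, and 122 and 141 in LT. The 3 IBA libraries were above the 11 others, and the ET range covered those of Ent and LT and overlapped that of SA. Cold against warm was -0.42 ± 0.10 (SE) with an adjusted p of 0.00246 in edgeR (Benjamini-Hochberg), past 0.05 but not 0.001. Of the fits with 1 library left out, 2 called it at 0.001. From IBA to Ent the log2 fold change was -0.76 ± 0.13 (SE) (adjusted p 0.00437) and from LT to IBA 0.64 ± 0.15 (SE) (adjusted p 0.00379), both past 0.05 in edgeR and not past 0.001. All IBA libraries were from the third season, in which SA replicates 2 and 3 had 129.8 and 166 CPM and Ent replicate 3 had 122 CPM.

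Sec24a, the inner-shell subunit that binds cargo, read 433, 444 and 488 CPM in SA, 523, 438 and 458 in IBA, 412, 356 and 364 in Ent, 373, 385 and 329 in ET, and 332 and 290.2 in LT. The 5 cold libraries were all below the 6 warm ones, and the Ent libraries were below the warm ones and overlapped the cold. Cold against warm was -0.47 ± 0.09 (SE) with an adjusted p of 0.000701 in edgeR (Benjamini-Hochberg). That call held without SA replicate 2 or Ent replicate 1 and was lost without any of the other 12 libraries, at an adjusted p of at most 0.00618 in edgeR. With total counts and with mapped reads as library sizes it was not called, and its log2 fold change was -0.35 and -0.24.

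Among the other ER exit members, Sec16a and Sec16b, paralogues that organise ER exit sites, were at 0.63 ± 0.16 (SE) and -0.31 ± 0.12 (SE), both past 0.05 in edgeR in opposite directions. The state means of Sec16a were 175 CPM in SA, 147 in IBA, 183 in Ent, 253 in ET and 242 in LT, and those of Sec16b 499 CPM in SA, 569.8 in IBA, 500.4 in Ent, 420.0 in ET and 439 in LT. Sec22b, a SNARE between ER and Golgi, and its paralogue Sec22a also passed 0.05 in opposite directions, at 0.42 ± 0.12 (SE) and -0.48 ± 0.12 (SE). In Sec22a all cold libraries were below all warm ones. The differences between these paralogues were not tested. Sec23ip, a Sec23 partner at exit sites, was at 0.49 ± 0.17 (SE) with an adjusted p of 0.0203 in edgeR.

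Of the translocon and signal peptidase genes, 0 of 5 were called at 0.001 in edgeR and 2 had an unadjusted p under 0.05 in the cold against the warm. Sec62, an auxiliary subunit of the channel, was at 0.35 ± 0.12 (SE) with an adjusted p of 0.0237 in edgeR, past 0.05. Sec61a1 and Sec61g, subunits of the channel, Sec63, another auxiliary subunit, and Sec11a, the catalytic subunit of signal peptidase, ran from -0.27 (Sec11a) to 0.42 (Sec61g) and did not pass 0.05. The lipid-binding units SEC14L3 and SEC14L4_containing are neighbours on Itri2, 4.42 kb apart on 1 strand, and reads running on from one into the next were not tested for. SEC14L3 read 106, 17.6 and 139 CPM in SA, 194, 97.8 and 119 in IBA, 106, 79.2 and 37.5 in Ent, 37.5, 40.9 and 37.3 in ET, and 48.8 and 52.7 in LT. SA replicate 2 was far below the other warm libraries and below every cold one, and it was also the lowest in SEC14L4_containing, at 43.5 CPM against 119 to 162 in the other 5 warm libraries. Cold against warm was -1.31 ± 0.42 (SE) and -0.72 ± 0.26 (SE), with adjusted p values of 0.0153 and 0.0298 in edgeR (Benjamini-Hochberg). Without SA replicate 2 these were -1.55 ± 0.26 (SE) and -0.91 ± 0.15 (SE), at 0.000299 and 0.000241, and both units were called lower in edgeR. With season in the model they were -2.03 ± 0.62 (SE) and -1.23 ± 0.35 (SE), at 0.0178 and 0.0121, and not called at 0.001 in edgeR.

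TRAPP complexes tether vesicles at the ER, Golgi and autophagosomes and activate Rabs. Of 6 subunits, 1 was lower at 0.001 (18.7% of single-gene units) and 2 at 0.05 (35%) in edgeR, and DESeq2 called 2 lower at 0.001. Trappc12, a subunit of TRAPPIII, lies on chromosome Itri12, 46858717 to 46919593 and had 70.6, 77.3 and 63.2 CPM in SA, 68.8, 77.5 and 76.3 in IBA, 56.1, 65.5 and 52.8 in Ent, 42.9, 33.8 and 43.1 in ET, and 32.2 and 46.5 in LT. The cold libraries were all below the warm and the Ent libraries, and Ent overlapped SA. The log2 fold change was -0.86 ± 0.13 (SE) with an adjusted p of 6.73e-05 in edgeR after Benjamini-Hochberg adjustment, called without any 1 library, and with mapped reads it stayed lower, at -0.64. With season in the model it was -0.95 ± 0.20 (SE), at an adjusted p of 0.00196 in edgeR, and missed 0.001. Trappc11, also of TRAPPIII, had 44.9 CPM in SA, 46.2 in IBA, 49.3 in Ent, 27.8 in ET and 29.1 in LT, and all its cold libraries were below all other libraries. Its log2 fold change was -0.68 ± 0.16 (SE) at an adjusted p of 0.00209 in edgeR, short of 0.001. Trappc8 and Trappc13, also of TRAPPIII, were at -0.15 and 0.09, and Trappc9 and Trappc6b at -0.19 and -0.10. These members did not pass 0.05, and Trappc8, Trappc9 and Trappc6b had the opposite sign under at least 1 other scaling or tool.

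Syntaxins are SNAREs that sit on the target membrane. Of 10 units 2 were higher in the cold (18.3% of single-gene units) and 1 lower (18.7%) at 0.001. With total counts as library sizes these counts were 3 and 1, with mapped reads 4 and 1, and with season in the model 1 and 1. DESeq2 called 3 higher and 2 lower, and edgeR without SA replicate 2 called 2 and 2. STX18_containing, a unit named for Stx18, a syntaxin of the ER, lies on chromosome Itri14, 63441083 to 63459765. Its levels were 35.4, 41.3 and 37.8 CPM in SA, 37.8, 24.7 and 30.0 in IBA, 40.7, 42.9 and 49.4 in Ent, 74.7, 61.7 and 67.2 in ET, and 59.9 and 65.8 in LT. All cold libraries were above all others. The log2 fold change of the cold was 0.93 ± 0.12 (SE) with an adjusted p of 2.83e-05 in edgeR (Benjamini-Hochberg), called without any 1 library. The call over the 5 states (adjusted p 0.000373) was lost without IBA replicate 3, ET replicate 1, ET replicate 3, LT replicate 1 or LT replicate 3, at adjusted p values from 0.00107 to 0.0018 in edgeR. The unit named Stx18 lies 50.2 kb downstream on the same strand and was at 0.00 ± 0.09 (SE) with an adjusted p of 0.98 in edgeR. Whether both units belong to 1 gene was not settled here.

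Stx16, of the trans-Golgi network, had 143 CPM in SA, 124 in IBA, 166 in Ent, 206 in ET and 217 in LT, without overlap of cold and warm libraries. The cold exceeded the warm by 0.67 ± 0.10 (SE) with an adjusted p of 7.21e-05 in edgeR (Benjamini-Hochberg), called without any 1 library. Stx10 and Stx6, its neighbours in the trans-Golgi network, were at 0.94 ± 0.21 (SE) and 0.33 ± 0.13 (SE), and Stx7 of late endosomes was at -0.60 ± 0.14 (SE), with adjusted p values of 0.00182, 0.0426 and 0.00257 in edgeR, past 0.05. For Stx10 the 3 SA libraries had 13, 14.6 and 12.2 CPM and the 3 Ent libraries 26.8, 27.5 and 33.4 CPM, and its Ent and cold libraries overlapped. Stx8 and Stx12 of endosomes and Stx17 of autophagosomes were at 0.14, -0.08 and 0.04 and did not pass 0.05, and Stx12 had the opposite sign with mapped reads.

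Sorting nexins bind phosphoinositides on endosomes through a PX domain. Of 9 members, 1 was higher (18.3% of single-gene units) and 2 lower (18.7%) in the cold at 0.001, and 2 were higher and 1 lower with total counts or mapped reads as library sizes. Snx11, a nexin of endosomes, lies on chromosome Itri7, 23839915 to 23850162 and read 13.3, 14.9 and 11.6 CPM in SA, 12.8, 7.73 and 8.46 in IBA, 18.6, 23.3 and 21.5 in Ent, 59.5, 55.4 and 52.8 in ET, and 50.6 and 61.3 in LT. The cold libraries were at least 50.6 CPM, the Ent libraries were between, and the 6 warm ones were at most 14.9 CPM, with no overlap between these 3 sets. Cold over warm was 2.32 ± 0.15 (SE), or 4.98-fold, with an adjusted p of 2.3e-07 in edgeR after Benjamini-Hochberg adjustment. That call, the one over the 5 states (adjusted p 4.17e-06) and the one from LT to IBA (-2.55 ± 0.22 (SE), adjusted p 9.07e-06) held without any 1 library and with season in the model. With season, cold over warm was 2.33 ± 0.24 (SE). From IBA to Ent the log2 fold change was 1.14 ± 0.20 (SE) with an adjusted p of 0.00466 in edgeR, and from ET to LT it was 0.00 ± 0.21 (SE).

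Snx17, which sorts receptors of the LDL receptor family back to the surface, lies on chromosome Itri12, 65627222 to 65636713 and is overlapped by a unit on the opposite strand. It had 61.2, 72.1 and 57 CPM in SA, 59.7, 62.5 and 61.8 in IBA, 64.4, 60.5 and 50.4 in Ent, 34.3, 41.8 and 36.7 in ET, and 20.9 and 28.1 in LT. The ET libraries were below the 9 SA, IBA and Ent libraries, and both LT libraries were below every ET library. Cold against warm was -1.04 ± 0.12 (SE) with an adjusted p of 1.09e-05 in edgeR (Benjamini-Hochberg), called without any 1 library and with season in the model (-1.14 ± 0.19 (SE)). Over the 5 states (adjusted p 0.00016) and from LT to IBA (1.32 ± 0.18 (SE), adjusted p 0.000123) the calls were lost without LT replicate 1, at 0.00126 and 0.00327 in edgeR. The step from ET to LT, -0.62 ± 0.18 (SE), had an adjusted p of 0.235 in edgeR and was not called. The call over the 5 states was also lost with season in the model.

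Snx2, which forms a coat on recycling tubules with other nexins, lies on chromosome Itri1, 135069802 to 135149297 and read 237, 223 and 230.4 CPM in SA, 334, 286 and 292 in IBA, 214, 233 and 243 in Ent, 178, 202 and 193 in ET, and 196 and 186 in LT. The IBA libraries were the highest, SA and Ent overlapped, and the cold libraries were below all 9 others. Cold against warm was -0.47 ± 0.08 (SE) with an adjusted p of 0.000231 in edgeR (Benjamini-Hochberg). That call was lost without LT replicate 1 or LT replicate 3, at 0.00132 and 0.00204, with total counts or mapped reads as library sizes and with season in the model (adjusted p 0.0119), and the call over the 5 states (adjusted p 0.000864) was lost without any 1 of the 14 libraries, at adjusted p values from 0.00101 to 0.0058 in edgeR. From SA to IBA it was at 0.40 ± 0.11 (SE) with an adjusted p of 0.0466 in edgeR. Snx1, Snx6 and Snx16 passed 0.05 in the cold against the warm, at 0.27, 0.30 and 0.42, and so did Snx8 at -0.26. Snx1, the partner of Snx2, had every cold library above every warm one. Snx3 of the retromer route and Snx9 of endocytosis were at -0.23 and -0.21, did not pass 0.05, and had the opposite sign with mapped reads.

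The 17 Vps members belong to several complexes of endosomes and lysosomes. At 0.001, 2 were higher in the cold (18.3% of single-gene units) and 1 lower (18.7%), with total counts 4 and 0, with mapped reads 6 and 0, and with 1 library left out 0 to 2 and 0 to 1. Vps29 is a subunit of retromer and of retriever, which return cargo from endosomes, and lies on chromosome Itri2, 156021059 to 156029575. It had 22.9, 25.9 and 27.9 CPM in SA, 9.66, 8.99 and 12 in IBA, 17.8, 21.5 and 24.5 in Ent, 36.8, 46.9 and 31.1 in ET, and 12.8 and 21.5 in LT. The 3 IBA libraries were the lowest of all, the 3 ET libraries the highest, and LT replicate 1, at 12.8 CPM, lay below every SA and Ent library. Cold and warm libraries overlapped, with cold over warm at 0.66 ± 0.17 (SE) and an adjusted p of 0.00505 in edgeR (Benjamini-Hochberg). Over the 5 states the adjusted p was 0.000311, and the call was lost without IBA replicate 1, 2 or 3 or ET replicate 2, at adjusted p values of up to 0.00172 in edgeR. From SA to IBA the log2 fold change was -1.32 ± 0.24 (SE) with an adjusted p of 0.00844, and from IBA to Ent 1.05 ± 0.24 (SE) with 0.0133, both past 0.05 in edgeR and not past 0.001. The SA replicates 2 and 3 and all IBA libraries were from the third season, and this step was not tested within that season. LT minus SA had the opposite sign, at -0.58, and with season in the model the call over the 5 states was lost.

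Vps35, the retromer scaffold, was at 0.50 ± 0.13 (SE) with an adjusted p of 0.00514 in edgeR and no overlap of cold and warm libraries, and VPS35L of retriever was at -0.13 ± 0.11 (SE) with 0.291 and the opposite sign with mapped reads. Among ESCRT genes, which bud vesicles into endosomes, Vps36 of ESCRT-II had 45.6 CPM in SA, 60.7 in IBA, 73.3 in Ent, 87.6 in ET and 87.7 in LT. Its cold over warm was 0.74 ± 0.12 (SE) with an adjusted p of 0.000177 in edgeR (Benjamini-Hochberg), lost without LT replicate 1 at 0.00113. Ent replicate 3, at 90.1 CPM, lay within its cold range. Vps4b, an ATPase that takes ESCRT apart, was at 0.50 ± 0.11 (SE) with an adjusted p of 0.00111 in edgeR, without overlap, and its paralogue Vps4a at 0.19 ± 0.12 (SE) with 0.165. Vps37a and Vps37b of ESCRT-I were at -0.48 and -0.28, both past 0.05.

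HOPS and CORVET tether late and early endosomes and share Vps18 and Vps11. Vps18 read 27, 27.5 and 20.1 CPM in SA, 21.3, 30.1 and 25.5 in IBA, 33.8, 39 and 33.8 in Ent, 56.4, 34.2 and 41.5 in ET, and 38.2 and 43.9 in LT. Its cold libraries were above all warm ones, and ET replicate 2 and LT replicate 1 lay within the Ent range. Cold over warm was 0.75 ± 0.16 (SE) with an adjusted p of 0.000982 in edgeR (Benjamini-Hochberg), a call that held without ET replicate 2 and was lost without any of the other 13 libraries, at an adjusted p of at most 0.00594 in edgeR. Vps11 was at 0.43, past 0.05, and Vps41 of HOPS at -0.04, with the opposite sign under other scalings. GARP and EARP tether vesicles at the trans-Golgi network and recycling endosomes, and share Vps52 and Vps53. Vps52 had 31.4 CPM in SA, 27.1 in IBA, 25.2 in Ent, 19.4 in ET and 17.7 in LT, with cold against warm at -0.65 ± 0.13 (SE) and an adjusted p of 0.000682 in edgeR. This call held without SA replicate 3 or ET replicate 2 and was lost without any of the other 12 libraries, at an adjusted p of at most 0.00543 in edgeR. Vps53 and Vps54 of GARP were lower at 0.05, at -0.32 and -0.39, and Vps50 of EARP was higher, at 0.41. The lipid transfer proteins Vps13b and Vps13c were at 0.02 and 0.29 and did not pass 0.05.

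**Figure D2:**
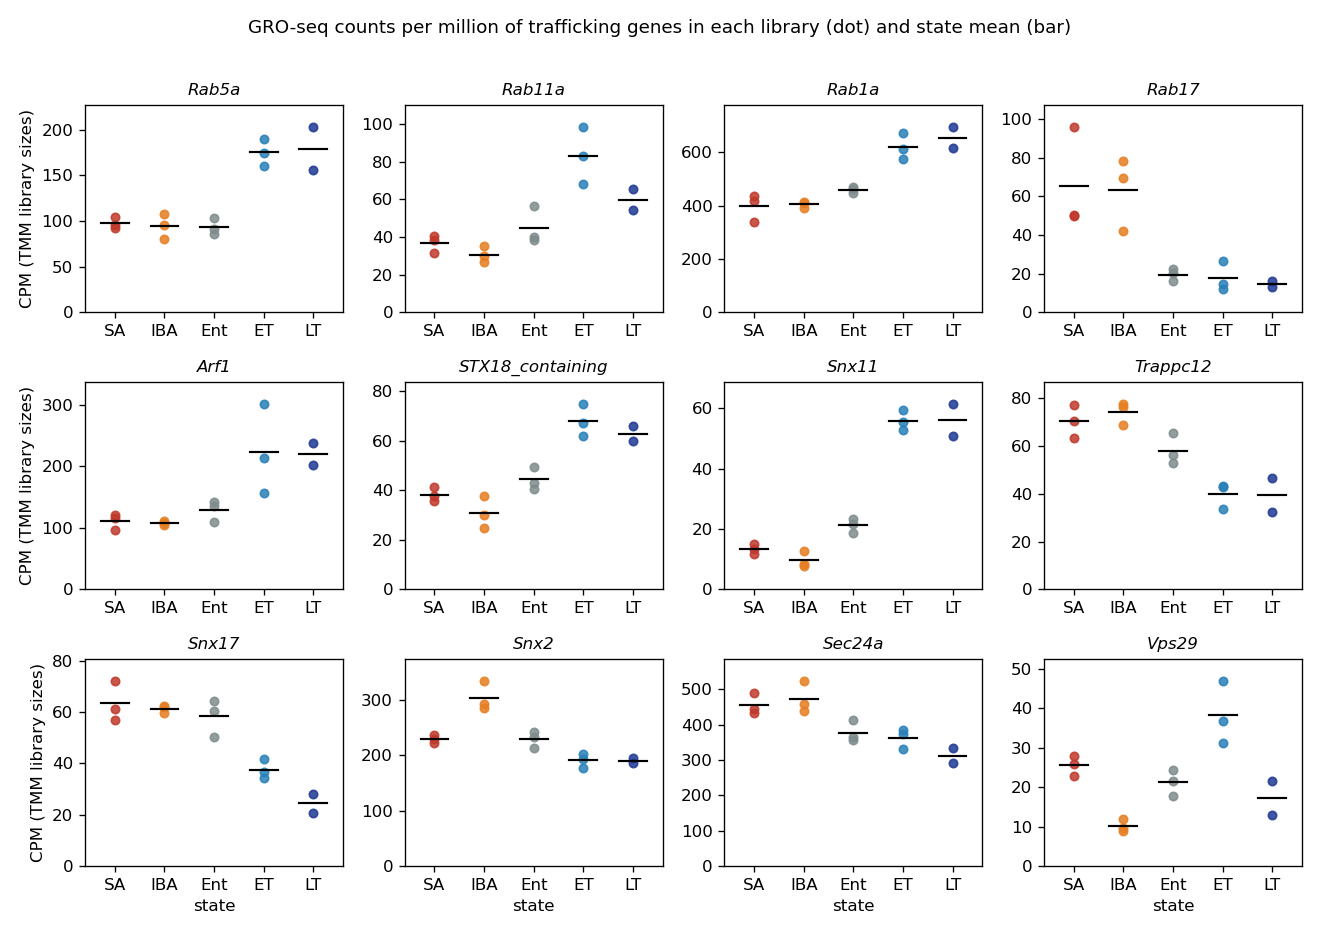
CPM with TMM library sizes in each library (dots) and the mean of each state (bars) for 12 members, with each axis from 0. The cold libraries of Rab5a, Rab11a, Rab1a, Arf1, STX18_containing and Snx11 lie above the warm ones, and those of Rab17, Snx17, Trappc12, Snx2 and Sec24a below, while those of Vps29 overlap.

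The steps of the yearly and torpor cycle ask when members differ between neighbouring states. From SA to IBA, 0 members were called at 0.001 in edgeR (0.0213% of single-gene units), with 14 at an unadjusted p under 0.05, while DESeq2 called 2 and limma-voom 0. At 0.05, 1 was higher (2.70% of single-gene units) and 1 lower (2.87%), Snx2 and Vps29. From IBA to Ent, 0 were called at 0.001 in edgeR (0.0425%), with 22 at an unadjusted p under 0.05, 4 in DESeq2 and 0 in limma-voom. At 0.05, 4 were higher (8.57%) and 5 lower (8.12%). The higher ones were Snx11 1.14, Vps29 1.05, STX18_containing 0.53 and Stx16 0.42 on the log2 scale, and the lower ones Rab17 -1.69, Rab43 -0.96, Sec23a -0.76, Snx3 -0.56 and Snx2 -0.40. IBA lies in the third season and Ent in the first and the third.

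From Ent to ET, 1 member, Snx11, was called at 0.001 (2.30% of single-gene units), at 1.40 ± 0.19 (SE) with an adjusted p of 0.000555 in edgeR with Benjamini-Hochberg adjustment. That call was lost without IBA replicate 3, LT replicate 3 or any 1 of the Ent and ET libraries, at adjusted p values from 0.00103 to 0.00425 in edgeR, and the count of members called was then 0, or 1 without Ent replicate 3. It was also lost with season in the model, where the count of members was 1, and with the replicate block, where it was 0. DESeq2 called 9 and limma-voom 1. At 0.05, 17 were higher (15.4%) and 5 lower (13.8%). Of the 15 Rab GTPases 6 were among the higher and 0 among the lower. Among the 5 lower were Trappc11 -0.83, Snx17 -0.64, Vps53 -0.61 and Trappc12 -0.54 on the log2 scale. The state ET and its season cannot be told apart in this step. From ET to LT, edgeR called 0 members at 0.001 (0% of single-gene units), with 5 at an unadjusted p under 0.05, and DESeq2 and limma-voom called 0. At 0.05, 0 were higher (0%) and 0 lower (0.340%).

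From LT to IBA, 7 members were called at 0.001 (17.6% of single-gene units), 3 higher and 4 lower. Among the higher were Snx17 1.32 and Snx2 0.67, and the lower were Snx11 -2.55, STX18_containing -1.03, Rab5a -0.92 and Stx16 -0.81 on the log2 scale. Without LT replicate 1 the count was 1, without LT replicate 3 it was 2, and without IBA replicate 2, IBA replicate 3 or ET replicate 3 it was 3. DESeq2 called 15, including these 7. Total counts and mapped reads as library sizes each gave 2 higher and 7 lower. At 0.05, 15 were higher (26.6%) and 17 lower (24.1%). The IBA libraries here are also part of the warm group and the LT libraries of the cold group, so that this step shares samples with the comparison of cold and warm. LT and IBA were from different seasons, and with season in the model 2 of the 7 were called.

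Other genes of the same routes, from 8 lists by function, gave 148 measured genes of 356 listed, of which 23 were higher and 18 lower in the cold at 0.001 in edgeR with Benjamini-Hochberg adjustment, with a median log2 fold change of 0.03. Over all single-gene units 18.3% were higher and 18.7% lower, and no list was tested against these shares. Calls of the listed genes are from the main fit alone. They were not examined with season in the model or with 1 library left out. Of 16 further SNARE genes 6 were higher (18.3% of single-gene units) and 1 lower (18.7%). On the log2 scale the higher were Ykt6 1.62, Napg 1.25, Vti1b 1.18, Stxbp6 0.87, Snap23 0.75 and Snap29 0.65, and Vti1a was at -0.64. Stxbp6 had state means of 158, 349, 400, 376 and 492 CPM in SA, IBA, Ent, ET and LT. Its IBA mean was near its ET mean, and SA was the lowest state. Ykt6 is a SNARE of Golgi and autophagosomes and Napg helps to take SNARE complexes apart. Of 25 genes of ER translocation, glycosylation and membrane insertion 6 were higher and 2 lower, beside the same shares. They were Rpn1 1.84, Srp14 1.61, Emc7 1.11, Emc3 0.99, Spcs3 0.96 and Emc8 0.86, and Dad1 -2.27 and Emc10 -0.67. Emc10 had state means of 64.0, 47.5, 71.7, 49.2 and 24.3 CPM in SA, IBA, Ent, ET and LT. Its ET mean was not below its IBA mean, and LT was the lowest state. Rpn1 and Dad1 are both subunits of the oligosaccharyltransferase, and their state means were 24.4, 21.9, 28.2, 84.8 and 79.1 CPM and 62.2, 60.5, 30.5, 13.9 and 11.6 CPM in SA, IBA, Ent, ET and LT. Other subunits of it changed less. Stt3a was at -0.73, past 0.05 in edgeR. Rpn2 (0.06), Ddost (0.31), Stt3b (-0.05), Ostc (0.32), Ost4 (-0.05) and Magt1 (0.22) did not pass 0.05.

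Of 19 genes listed as ER exit genes, cargo receptors and ER-Golgi partners, 2 were higher (18.3% of single-gene units, also for the lists that follow) and 5 lower (18.7%). The higher were Yipf6 0.91 and Kdelr2 0.76 and the lower Kdelr1 -1.40, Creb3l2 -1.31, Preb -1.16, Sar1b -1.06 and Mcfd2 -0.81 on the log2 scale. Sar1b is the GTPase that starts COPII assembly, with state means of 305, 292, 196, 153 and 135 CPM in SA, IBA, Ent, ET and LT, and Preb is its exchange factor. Kdelr1 and Kdelr2 are receptors that return ER proteins, and the difference between them was not tested. Rab regulators had 2 higher and 4 lower of 23, Gdi2 1.10 and Dennd4a 0.57, and Tbc1d8 -1.17, Tbc1d2b -0.98, Tbc1d32 -0.70 and Tbc1d23 -0.54. Gdi2 keeps Rabs soluble, and Tbc1d proteins are GTPase-activating proteins or resemble them. Among 18 Arf-like GTPases and Arf regulators 3 were higher and 2 lower, Gga3 1.21, Arl1 1.04 and Arl5a 0.60, and Arl13b -1.29 and Gga2 -1.21. Tethers and golgins had 1 higher and 3 lower of 22, Cog6 0.59, and Vipas39 -1.85, Cog4 -1.05 and Gorasp1 -0.58. Clathrin and adaptor subunits had 2 higher and 1 lower of 15, Ap2a1 1.02, Ap4e1 0.81 and Ap2b1 -0.63, and of 10 ESCRT genes Ist1 was higher (0.63) and 0 lower in edgeR, with 2 higher and 2 lower at an adjusted p of 0.05, beside 30.1% and 35% of single-gene units.

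By position, 6 members (7.50%) had a unit on the same strand less than 10 kb upstream, against 270 single-gene units (5.74%), and reads that run on from an upstream unit were not tested for. They were Stx12, Vps4a, SEC14L3, Copb1, Rab11fip4 and Vps52, of which Vps52 was called in the cold against the warm. The 11 higher members had a median unit length of 25.4 kb and 3.40 CPM per kb, and the 7 lower 23.7 kb and 2.66 CPM per kb, beside 36.2 kb and 2.16 CPM per kb over all single-gene units.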

How the data were processed

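The authors trimmed the reads with cutadapt and aligned them to the HiC_Itri_2 genome with BWA. They lengthened the annotated gene where the GRO-seq signal ran further 3′ and kept the annotation of the other genes. They joined genes that overlap, left out the first 500 nt after the start site, and counted unique reads per unit with featureCounts. The deposited values are these raw counts, before any normalisation. Columns were matched to samples by animal number, and collection season came from the study's metadata. All 6324 units were fitted in edgeR 4.0.16 (quasi-likelihood, TMM, 1 mean per state, no filter) in R 4.3.3, and p-values were adjusted over all of them at 0.001. They measure spread between animals. DESeq2 1.42.0, limma-voom (limma 3.58.1), other scalings, filters and designs were alternatives. Members of each class called over the 5 states were taken in order of adjusted p (up to 8 for Rab GTPases and Sec, otherwise 4, or the smallest adjusted p where none was called), with other members past 0.05 given by state means or fold changes. Called members with values in every library that fall outside this rule, and SEC14L3, were chosen after their values were seen. Names matched a RefSeq symbol for 77 of 80 members. Members, the 8 pathway lists and the 8 marker lists were chosen with earlier results of these data known. The fits were tested on simulated data. Promoter motifs were not analysed here. Of the members, 1 counts in the totals and is not reported singly here.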

Additional observations from a re-analysis of the deposited data

How the results depend on the processing

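In the cold against the warm, the 15 members chosen by rule kept their direction in all 360 alternatives, 339 of them on the same side of the threshold, with 10 no longer past it and 11 newly past it. With season in the model Rab5a, Rab17, Rab1a, Arf1, Trappc12 and Snx2 were no longer past it. The rest of the 10 were of Snx2, with total counts, with mapped reads or without either LT library. Of the 15, 11 were chosen by a call over the 5 states, and these calls were lost more often. With 1 library left out, that of Snx2 held in 0 of 14 fits, of Arf1 in 2, of Rab1a in 3 and of STX18_containing in 9. Those of Rab11a and Vps29 held in 10 and those of Rab17 and Snx17 in 13. Members called over the 5 states numbered 27 in DESeq2, 2 with season in the model and 44 at 0.05, and 5 to 11 with 1 library left out. Those higher in the cold were 18 in DESeq2, 22 with mapped reads, 3 with season and 29 at 0.05, and 7 to 11 with 1 library left out. Those lower were 11 in DESeq2, 4 with total counts, 4 with mapped reads, 2 with season and 22 at 0.05, and 4 to 10 with 1 library left out. In the first season alone, an alternative chosen after seeing the data, SA was 1 library, and 0 were higher and 0 lower in edgeR, a count from which nothing is read. For the step from SA to IBA, DESeq2 called 2 and edgeR at 0.05 called 2. For IBA to Ent these were 4 and 9, for Ent to ET 9 and 22, and for LT to IBA 15 and 32. From Ent to ET, total counts and mapped reads gave 2 each, and 0 to 1 were called with 1 library left out. From LT to IBA, season gave 2, and 1 to 9 were called with 1 library left out. The members' median log2 fold change was 0.18 with total counts and 0.29 with mapped reads. The cause was not tested.

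With the replicate block, 8 members were called over the 5 states, 10 higher and 5 lower in the cold, 0 from Ent to ET and 3 from LT to IBA. Replicate numbers did not pair animals: residuals of libraries with the same number correlated across units at -0.273 to 0.265 (median 0.0398), and the design has no paired animals.

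LT has 2 libraries, so without either 1 the other is assumed to vary as the other states do. Season and state cannot be told apart for ET, which the season term does not adjust. Counts are relative within each library. The promoter comparison was not run, as no promoter sequences were used here.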
